A study of Mus musculus with 6 samples.

Results

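The 10 genes described here encode subunits of cohesin, a factor that loads it on chromatin and a factor that releases it. They were found by gene symbol among 30142 measured genes. All 10 had exactly 1 row among the array rows named with exactly 1 gene symbol. The family was chosen by the level of Stag3, already known to exceed the control values on replicates 1 and 2 of Dnmt3b-KO, so the Stag3 difference is given as a description with no test. The other 9 members came with it as a family, and the fit over all genes is given for them.

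Cohesin is a protein ring that holds sister chromatids together and forms chromatin loops. In dividing body cells the ring is built from SMC1A, SMC3 and RAD21 with either STAG1 or STAG2. In meiosis SMC1B, REC8 and STAG3 take the places of SMC1A, RAD21 and the other STAG proteins, and their genes are normally silent outside the germ line. NIPBL loads cohesin on DNA and WAPL releases it. STAG2, RAD21, SMC1A and SMC3 are recurrently mutated in human acute myeloid leukaemia.

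Gene expression was measured on 6 Affymetrix mouse transcriptome arrays, 3 named Control AML and 3 named Dnmt3b-KO AML. Both groups were MLL-AF9 leukaemia cells, a mouse model in which that fusion oncogene induces acute myeloid leukaemia (AML), and the Control AML source is given as a littermate control. The cells were sorted from the bone marrow of recipient mice that had reached the end stage of disease. The enzyme made from Dnmt3b methylates CpG dinucleotides that carry no methyl group yet, and the comparison asks how its loss changes expression. How and in which cells Dnmt3b was deleted, the sorting markers, and the age and sex of the mice are not stated in the labels. Whether the arrays of a group come from separate mice is not labelled. The p-values therefore reflect only the spread between these arrays, which may be technical.

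Values are on the log2 scale as deposited. They reach 19.59, above the log2 scanner range of 16, so an unstated step stretched or shifted them, and differences are not converted to folds. The median gene lay between 4.75 and 4.85 on the 6 arrays. The targeted gene, Dnmt3b, was lower on all 3 Dnmt3b-KO arrays, at 6.47, 6.63 and 5.96 against 6.79 ± 0.04 (SD, n = 3) for control. Groups did not overlap in the lower direction over 6 arrays for 8.21% of all genes. Dnmt3b was not called over 6 arrays (limma, adjusted p = 0.78), where 0% of all genes were called. Dnmt3b-KO replicate 3 stood apart. Across genes its Pearson's r with any other array was at most 0.982, and any pair of the remaining 5 reached at least 0.998. It is therefore given by itself throughout. For each cohesin member the difference is given over 6 arrays and over the 5 arrays without it. The comparison over 5 arrays was chosen with results known. For most other genes only the 5-array difference is given. Of 10 B and T cell markers, 8 stayed below 5 on every array, and the others, Cd79b and Ighm, measured 7.79 to 9.32 and 7.27 to 9.05. Of 20 monocyte and macrophage markers, 6 stayed below 5 on the 5 arrays other than Dnmt3b-KO replicate 3, and Itgam, a myeloid integrin, measured 13.50 to 13.95 on them.

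The promoters of the meiotic genes are shown because CpG dinucleotides are the substrate of DNMT3B, and that of Stag1 is shown beside them as a gene active in body cells. The sequences are from RefSeq with assembly GRCm38.p6, run 5′ to 3′ from 250 bases before to 50 after an annotated start, and have each CpG in capitals. The Stag3 window is chr5:138280259-138280558 on the plus strand, Smc1b chr15:85131908-85132207 on the minus strand, Rec8 chr14:55617916-55618215 on the plus strand and Stag1 chr9:100643198-100643497 on the plus strand.
Stag3: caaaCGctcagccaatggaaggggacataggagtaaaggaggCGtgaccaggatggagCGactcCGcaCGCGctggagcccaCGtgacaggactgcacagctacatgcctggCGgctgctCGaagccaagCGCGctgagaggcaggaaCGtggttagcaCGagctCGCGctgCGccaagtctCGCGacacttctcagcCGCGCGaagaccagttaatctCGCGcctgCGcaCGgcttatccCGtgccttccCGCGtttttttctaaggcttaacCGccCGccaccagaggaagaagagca
Smc1b: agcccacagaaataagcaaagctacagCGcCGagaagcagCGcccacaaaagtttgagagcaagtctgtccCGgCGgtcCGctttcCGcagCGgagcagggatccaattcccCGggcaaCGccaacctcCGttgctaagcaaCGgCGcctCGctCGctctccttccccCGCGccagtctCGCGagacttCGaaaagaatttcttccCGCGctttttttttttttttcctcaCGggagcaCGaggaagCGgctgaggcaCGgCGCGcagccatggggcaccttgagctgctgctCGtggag
Rec8: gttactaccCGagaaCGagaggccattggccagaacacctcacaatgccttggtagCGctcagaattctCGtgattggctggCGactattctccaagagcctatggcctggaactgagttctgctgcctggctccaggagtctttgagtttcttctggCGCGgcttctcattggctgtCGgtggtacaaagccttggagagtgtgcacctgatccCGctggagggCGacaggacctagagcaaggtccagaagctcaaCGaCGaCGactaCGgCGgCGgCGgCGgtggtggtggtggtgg
Stag1: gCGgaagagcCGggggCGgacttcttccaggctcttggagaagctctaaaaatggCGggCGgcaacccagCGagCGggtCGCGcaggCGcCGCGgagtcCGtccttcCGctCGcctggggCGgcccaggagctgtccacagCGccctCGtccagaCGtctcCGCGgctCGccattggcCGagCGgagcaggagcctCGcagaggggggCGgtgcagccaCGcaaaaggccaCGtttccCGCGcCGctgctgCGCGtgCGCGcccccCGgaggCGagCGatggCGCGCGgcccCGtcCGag

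The Stag3 window held 30 CpG, and 11.7% of all 32851 promoter windows held at least as many. Smc1b held 29, Rec8 18 and Stag1 43, against a median of 7 over all windows. Of the 10 members, 7 had a window in the table. Smc1a held 23 CpG, Smc3 32 and Wapl 35, so the counts of the meiotic genes and of the others overlapped. The letters TCCCGC, bound by E2F factors including E2F6, a repressor of Stag3 and Smc1b in body cells, were in 6 of these 7 windows on either strand and in 20% of all windows. The letters CACGTG, an E-box bound by MAX partners such as MGA, were in 1 of the 7, Stag3, and in 7.15% of all windows. Both motifs contain a CpG, and each of the 7 windows held more CpG than the median of 7. The shares over all windows are therefore not a like background. These motif counts are a description of the letters and no methylation was measured here.

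**Figure D1:**
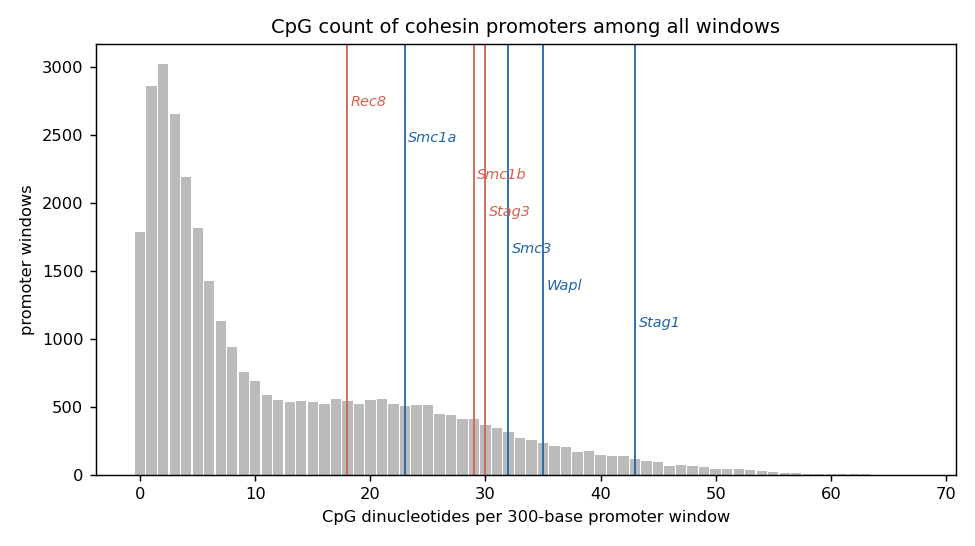
The grey bars count the 300-base promoter windows (y axis) by their number of CpG dinucleotides (x axis), and the lines mark the cohesin genes, meiotic in red and others in blue. Stag3 at 30 and Smc1b at 29 lie among the other cohesin genes, well to the right of the median of 7.

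Among the STAG subunits, Stag3 was higher on every Dnmt3b-KO array than on every control, and the groups overlapped for Stag1 and Stag2. Stag3 measured 4.95, 4.96 and 5.16 on the control arrays and 6.37, 6.37 and 5.37 on Dnmt3b-KO replicates 1, 2 and 3. All 3 Dnmt3b-KO values lay above the controls, with replicates 1 and 2 nearly equal and replicate 3 close to the highest control. The difference from control was 1.01 ± 0.29 (SE) over 6 arrays and 1.35 ± 0.08 over 5 arrays, and 237 genes of 30142 had a larger difference above 0 over 6 arrays and 20 over 5. Group values did not overlap over 6 arrays in the higher direction for 6.68% of all genes, and nothing is read from this for Stag3, since that contrast brought it in. The control values and replicate 3 lie within the range of the 23 background control rows of the array, 2.30 to 5.62, and replicates 1 and 2 above it, so the size of the difference is not exact.

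Stag1 measured 11.39, 11.47 and 11.32 in control and 11.51, 11.45 and 10.72 in Dnmt3b-KO. The groups overlapped, and replicate 3 lay below every other array. The difference was 0.08 ± 0.07 (SE) over 5 arrays (limma, adjusted p = 0.64), with a 95% interval of -0.08 to 0.24, and -0.17 ± 0.22 over 6 arrays (adjusted p = 0.87). Stag2, on the X chromosome, measured 14.04, 14.02 and 13.89 in control and 14.11, 14.08 and 13.73 in Dnmt3b-KO. The values of replicates 1 and 2 were just above the highest control and replicate 3 was below the lowest. Its difference was 0.11 ± 0.07 over 5 arrays (limma, adjusted p = 0.53; 95% interval -0.05 to 0.27). Over 6 arrays it was -0.01 ± 0.12 (adjusted p = 0.99) and turned to 0.15 after repeated quantile normalization. The Stag3 difference exceeded that of Stag1 by 1.18 and that of Stag2 by 1.02 over 6 arrays, and by 1.26 and 1.24 over 5 arrays. These contrasts compare differences, not levels, and carry no test because Stag3 was chosen for its difference.

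**Figure D2:**
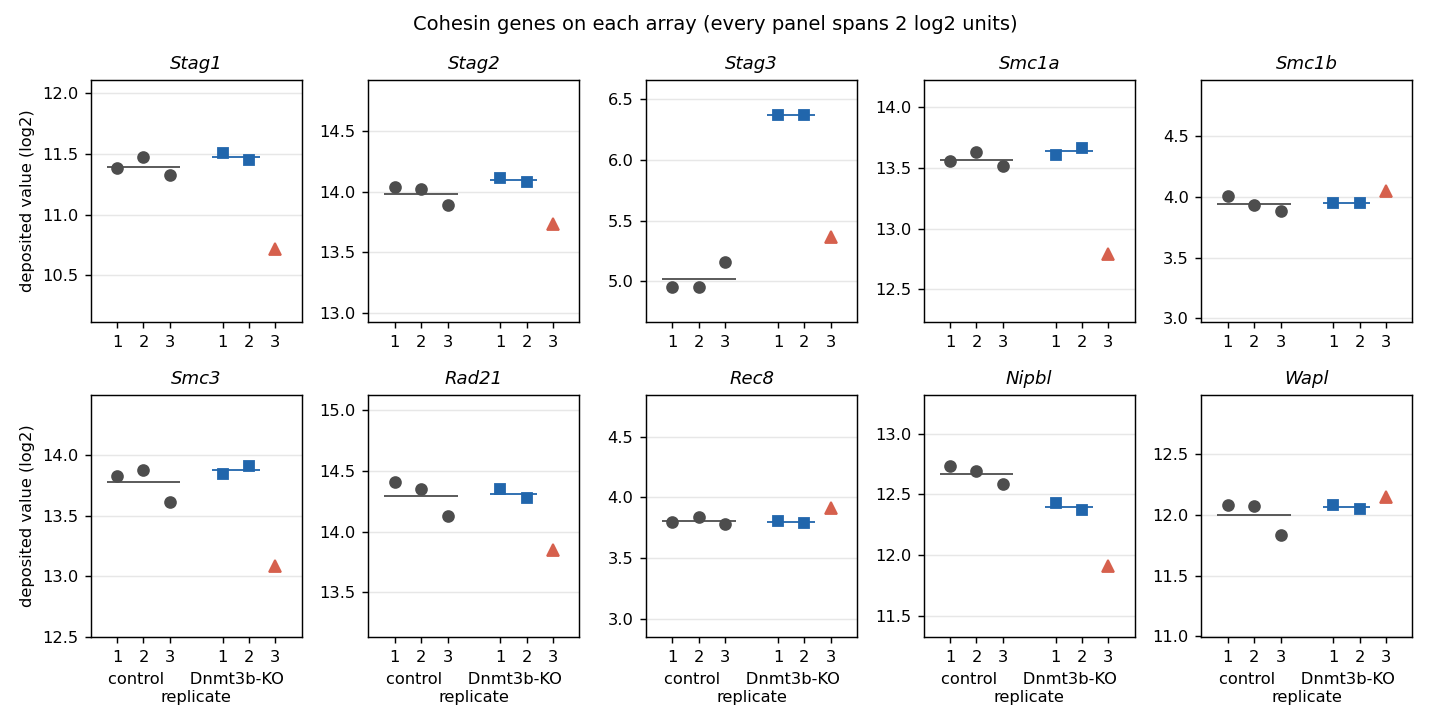
Each panel shows 1 gene on the 6 arrays (x axis, replicate within group; y axis, deposited log2 value), with control as circles, Dnmt3b-KO replicates 1 and 2 as squares and replicate 3 as a triangle, and lines at the mean of the circles and of the squares. Stag3 at 6.37 stands above control on replicates 1 and 2, while Stag1, Smc1a and Smc3 are level on 5 arrays and lower on replicate 3.

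The other meiotic subunits differed little between the groups. Smc1b, the meiotic counterpart of Smc1a, measured 4.004, 3.93 and 3.89 in control and 3.95, 3.95 and 4.05 in Dnmt3b-KO. Rec8, the meiotic counterpart of Rad21, measured 3.79, 3.84 and 3.78 in control and 3.80, 3.79 and 3.91 in Dnmt3b-KO. Both lay below the median gene and within the background control rows on every array, and for both replicate 3 was highest by a small margin. The 5-array difference was 0.01 ± 0.06 (SE) for Smc1b (limma, adjusted p = 0.97; 95% interval -0.14 to 0.15). For Rec8 it was -0.01 ± 0.05 (adjusted p = 0.97; 95% interval -0.14 to 0.12). Over 6 arrays the differences of Smc1b and Rec8 were 0.04 ± 0.06 and 0.03 ± 0.06 (limma, adjusted p = 0.889 and 0.915). At this level near background, transcripts of low abundance would not be detectable.

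The ring subunits of body cells gave no call, and their means on Dnmt3b-KO replicates 1 and 2 lay close to control. Smc1a, also on the X chromosome, measured 13.56, 13.63 and 13.51 in control and 13.61, 13.66 and 12.79 in Dnmt3b-KO. Smc3 measured 13.83, 13.88 and 13.61 in control and 13.85, 13.91 and 13.09 in Dnmt3b-KO. Rad21, the subunit cut by separase when chromatids part, measured 14.41, 14.35 and 14.13 in control and 14.35, 14.28 and 13.85 in Dnmt3b-KO. For all 3 genes replicates 1 and 2 lay within or beside the control values and replicate 3 below every other array. Over 5 arrays the differences were 0.07 ± 0.06 (SE) for Smc1a, 0.10 ± 0.09 for Smc3 and 0.02 ± 0.09 for Rad21 (limma, adjusted p = 0.70, 0.69 and 0.97). With Stag1 and Stag2 included, the 5-array 95% intervals of these 5 subunits reached from -0.21 to 0.32. Over 6 arrays the differences were -0.21 ± 0.24 for Smc1a, -0.16 ± 0.23 for Smc3 and -0.14 ± 0.15 for Rad21 (limma, adjusted p = 0.85, 0.88 and 0.85).

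Nipbl, the cohesin loader, was lower on every Dnmt3b-KO array than on every control. It measured 12.73, 12.70 and 12.59 in control and 12.43, 12.37 and 11.91 in Dnmt3b-KO, with replicate 3 the lowest. The difference was -0.27 ± 0.07 (SE) over 5 arrays (limma, adjusted p = 0.12; 95% interval -0.43 to -0.11) and -0.43 ± 0.15 over 6 arrays (adjusted p = 0.73), so it did not pass the threshold in either fit. Groups that do not overlap in the lower direction over 6 arrays were found for 8.21% of all genes. Wapl, the release factor, measured 12.08, 12.08 and 11.84 in control and 12.08, 12.05 and 12.15 in Dnmt3b-KO. Its values overlapped on 5 arrays, with a difference of 0.07 ± 0.09 (limma, adjusted p = 0.81). Over 6 arrays the Wapl difference was 0.09 ± 0.09 (limma, adjusted p = 0.83).

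Of the 9 members other than Stag3, 0 passed the threshold of an adjusted p under 0.05 in limma over 6 arrays, where 0% of all genes passed, and 0 passed over 5 arrays, where 1.69% of all genes passed. At an unadjusted p under 0.05, 1 of the 9, Nipbl, was below it in each fit, against 6.37% of all genes over 6 arrays and 15.5% over 5. The median difference of the 9 was 0.07 over 5 arrays and -0.14 over 6 arrays, and that of all genes -0.01 and 0.00.

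**Figure D3:**
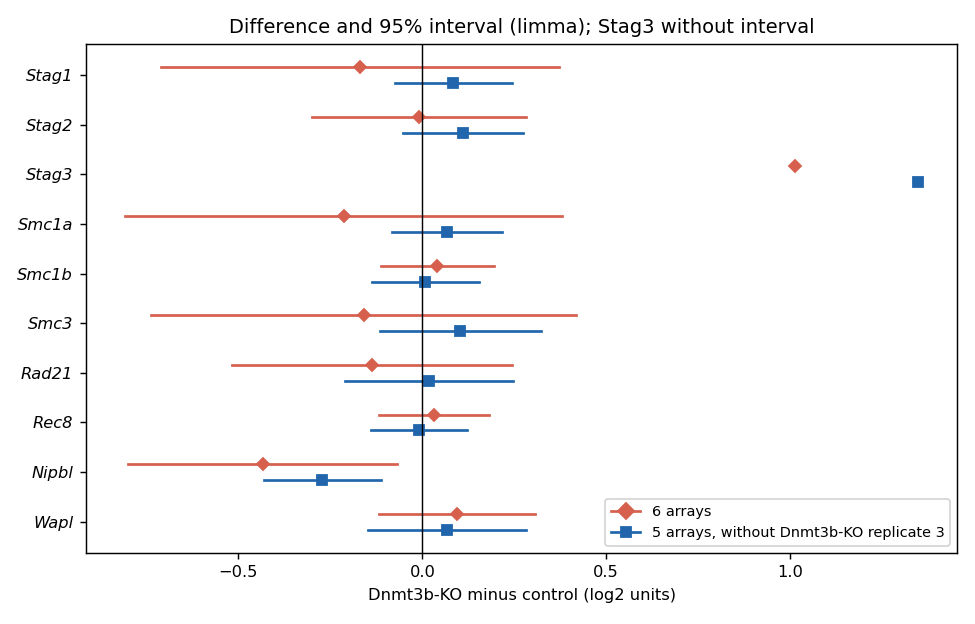
Dnmt3b-KO minus control in log2 units (x axis) is drawn for each gene over 6 arrays (diamonds) and over 5 arrays without Dnmt3b-KO replicate 3 (squares), with 95% limma intervals except for Stag3, which was chosen for its difference. The 6-array intervals of Stag1, Smc1a and Smc3 are wide, and Nipbl is the only interval drawn that lies below 0 in both fits.

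On Dnmt3b-KO replicate 3, the cohesin genes of body cells were lower as a group. Of Stag1, Stag2, Smc1a, Smc3, Rad21, Nipbl and Wapl, 6 of 7 had their lowest value of all arrays there, and 31.3% of all genes did. The exception, Wapl, had its highest value there, as did Smc1b and Rec8, and 33.9% of all genes did. After repeated quantile normalization Smc1b was no longer highest, and with arrays centred on the median gene none of these 3 was. Replicate 3 differed from the mean of the other 5 arrays by -0.80 for Smc1a, -0.73 for Smc3, -0.71 for Stag1, -0.65 for Nipbl, -0.45 for Rad21 and -0.29 for Stag2. The median of the 7 genes was -0.65 and that of all genes 0.01. Repeated quantile normalization left these 6 genes and the median below 0, at -0.56 for the median, but Stag2 at -0.16 was then no longer lowest. Arrays centred on the median gene gave a median of -0.73. The share of all genes lowest on replicate 3 was 38.8% after quantile normalization and 43.8% with centring, and the share highest there 24.9% and 21.2%. The 7 genes measured at least 10.72 on every array, while 14936 of all 30142 genes stayed below 5 on every array. The shares and the median over all genes are therefore not a like background. Replicate 3 is a single array, so these differences have no replicate check.

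Mast cell, basophil and eosinophil markers, and erythroid markers, had lower mean levels on all 3 Dnmt3b-KO arrays. For G2/M genes of cell division and for monocyte and macrophage markers, the mean levels of replicates 1 and 2 lay near control. On replicate 3 that of the G2/M genes was lower and that of the macrophage markers higher. Of 19 measured G2/M genes, 17 had their lowest value there and the list's median was -0.78. Of 14 condensin and SMC5/6 genes, which encode the other ring complexes of chromosomes, 11 were lowest there with a median of -0.58, and of 19 cohesin regulators 14 were lowest with a median of -0.34. The mean level of the G2/M list was 12.17 to 12.39 in control, 12.29 and 12.25 on Dnmt3b-KO replicates 1 and 2, and 11.57 on replicate 3. The mean level of 20 monocyte and macrophage markers was 7.64 to 7.81 in control, 7.83 and 7.66 on replicates 1 and 2, and 10.65 on replicate 3. There 13 of the 20 were higher than the mean of the other 5 arrays by more than 1, against 4.02% of all genes, and 2 were lower by more than 1, against 2.59%. The 2, Vcam1 and Ccr2, differed by -1.64 and -1.22 and are named after their values were seen. Gpnmb, a macrophage glycoprotein with the largest difference of the list, measured 16.16 against at most 5.55 elsewhere. Mast cell, basophil and eosinophil markers had a mean level of 8.10 to 8.17 in control, 7.21 and 7.44 on replicates 1 and 2 and 6.25 on replicate 3, and over 5 arrays 1 of 12 rose and 6 fell, against 0.939% and 0.75% of all genes. Erythroid markers had 4.79 to 5.02, then 4.56, 4.38 and 4.41, and 0 of 6 passed. Only these 6 of the 10 listed were measured, and 4 of the 6 stayed below 5 on every array. B and T cell markers had 4.91 to 5.09, then 4.96, 4.87 and 4.98, and 0 of 10 passed. Of the G2/M list 1 of 19 fell over 5 arrays, Aurka by 0.33 (limma, adjusted p = 0.047), and of the macrophage list 0 of 20 passed. Xist, whose RNA coats and silences the inactive X chromosome, measured 15.44 there and 16.66 to 16.79 on the others, and the Y-linked Eif2s3y 8.26 against 4.41 to 4.54, which stands beside the X-linked Stag2 and Smc1a. Their part in the lower cohesin values was not tested. The gene lists above were chosen with earlier results of these data known. Their counts beside the shares of all genes are therefore a description and no test. In RNA from sorted cell populations, fewer cells of a type and less RNA per cell cannot be told apart.

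**Figure D4:**
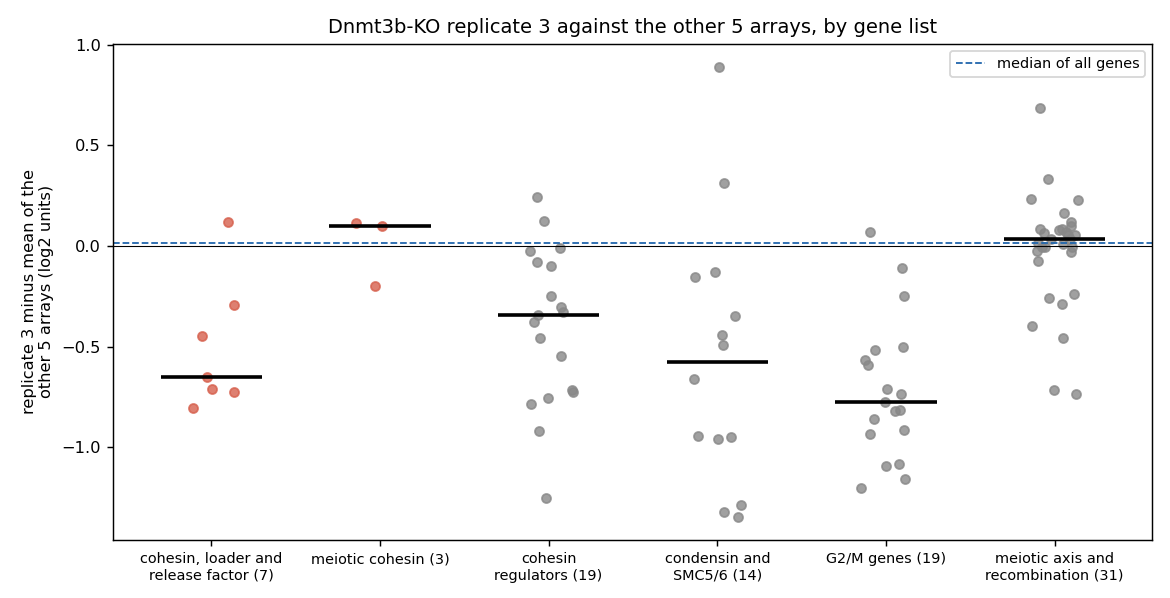
Each point is 1 gene, placed by its value on Dnmt3b-KO replicate 3 minus the mean of the other 5 arrays in log2 units (y axis), with bars at the list medians and a dashed line at the median of all genes, 0.01. The cohesin genes of body cells have a median of -0.65, between the condensin and SMC5/6 list at -0.58 and the G2/M list at -0.78.

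Over 5 arrays, the regulators of cohesin gave no call. Of 19 measured genes for the acetylation, protection, removal and positioning of cohesin, 0 rose and 0 fell, against 1.69% called among all genes, and the list's median difference was 0.06. The smallest p was that of Chtf8, a subunit of a clamp loader that acts in cohesion, at -0.23 ± 0.07 (SE; limma, adjusted p = 0.19). Of the 14 condensin and SMC5/6 genes 0 passed, with Nsmce4a of the SMC5/6 complex the nearest at 0.18 ± 0.06 (adjusted p = 0.19). Of 16 genes that keep germ line genes silent 0 passed. The nearest there was Max, a partner of MGA, at -0.18 ± 0.08 (limma, adjusted p = 0.33).

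Of 31 measured genes of the meiotic chromosome axis and of recombination, 1 rose over 5 arrays, 0 fell and 30 did not pass, where 0.939% of all genes rose, and the median difference was 0.00. The gene that rose was Dmc1, the meiotic strand exchange recombinase. It measured 9.90, 9.89 and 9.72 in control, 11.27 and 11.21 on Dnmt3b-KO replicates 1 and 2, and 9.68 on replicate 3. The first 2 Dnmt3b-KO values lay above every control and the third below every control. The difference was 1.40 ± 0.07 (SE; limma, adjusted p = 0.0029) over 5 arrays and 0.88 ± 0.44 over 6 arrays (adjusted p = 0.82). Dmc1 and Stag3 were both known from earlier results of these data to be higher on Dnmt3b-KO replicates 1 and 2. The call and p-values of Dmc1 are therefore a description and no test, and nothing is read from the count of 1. Of the 31 genes, 22 stayed below 5 on every array.

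**Figure D5:**
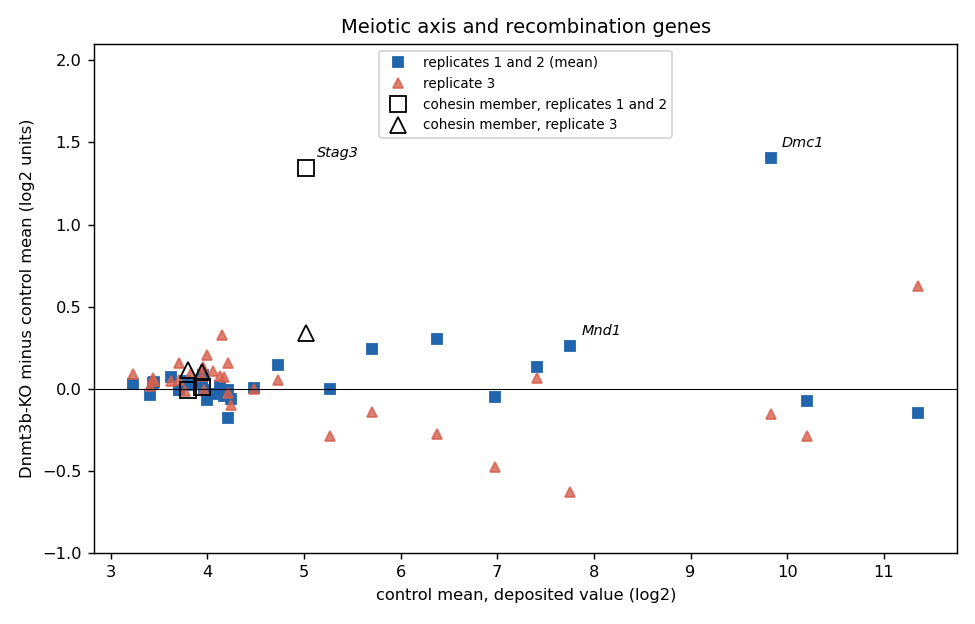
For 31 meiotic genes and the 3 meiotic cohesin members, the difference from the control mean in log2 units (y axis) is set against the control mean (x axis), squares for the mean of Dnmt3b-KO replicates 1 and 2 and triangles for replicate 3. Stag3 at 1.35 and Dmc1 at 1.40 stand apart from the others on replicates 1 and 2, and neither does on replicate 3.

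The genes beside Stag3 on chromosome 5 gave no call. Gpc2, a glypican gene, starts 572 bases from the Stag3 start in the opposite direction in RefSeq, and its gene record lies within that of Stag3 (chr5:138272514-138312397), which begins before the start used here. Gpc2 measured 5.43, 5.42 and 5.50 in control and 5.45, 5.43 and 5.08 in Dnmt3b-KO, with replicates 1 and 2 among the controls. Its difference over 5 arrays was -0.01 ± 0.06 (SE; limma, adjusted p = 0.97). Every Gpc2 value lay within the range of the background control rows, 2.30 to 5.62, so transcripts of low abundance would not be detectable. Of the 4 measured genes on each side of Stag3, 0 of 8 passed the threshold, against 1.69% of all genes, with differences of -0.46 to 0.14 over 5 arrays. Gal3st4 also lay within the background rows, and some of the 8 are pseudogenes or non-coding RNA genes.

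The 5 genes whose values followed Stag3 most closely over the 6 arrays were Strc, Lipo2, Arf2, Lipo3 and Cmc1, with Pearson's r of 0.993 to 0.999 as a description. Their 5-array differences were 0.51, 0.86, 0.21, 1.03 and 0.25. Lipo2 and Lipo3 are related lipase genes, and their rows may share probes. For Strc and Lipo3 every control value lay below the median gene, and those of Lipo2 lay around it, at 4.68 to 4.801. Among the cohesin members, r with Stag3 was highest for Stag2, at 0.44, and lowest for Nipbl, at -0.35. With 6 arrays, of which replicate 3 stands apart, these r values rest on few points.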

How the data were processed

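The deposited values are log2 expression per array row, made by the authors with RMA per the submitters' processing notes; its version, the build and the annotation are not stated there. Of 72688 rows, an older probe table named 30604 with exactly 1 gene symbol. Symbols of 827 rows were updated through the gene identifier, and the highest-mean row per gene was kept, which left 30142 genes.

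The groups were fitted with lmFit and eBayes of limma (3.58.1, R 4.3.3) over 6 arrays and again without Dnmt3b-KO replicate 3, and p-values were adjusted over all genes after Benjamini and Hochberg, with a threshold of 0.05. The code was tested on simulated data. Intervals are 95% per gene, not adjusted over genes. The number of arrays limits the precision. Members and lists were chosen with earlier results of these data known. The rule for names took all members, Dnmt3b, from each list up to 3 called genes per direction or else the gene with the smallest 5-array p, up to 4 markers that differ by over 1 on replicate 3, and the 5 genes most correlated with Stag3. Of the cell type markers that this rule took, the text names only some. Lists were cohesin regulators, condensin and SMC5/6, meiotic genes, repressors of germ line genes, G2/M genes, and 4 lists of cell type markers. Promoter windows were read from a RefSeq table. Figures were drawn with matplotlib.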

Additional observations from a re-analysis of the deposited data

How the results depend on the processing

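Counting repeated value sets once was an alternative chosen after seeing the data. Over 6 arrays 0 genes were called. Array weights, which gave Dnmt3b-KO replicate 3 a weight of 0.11, called 103. Leaving out 1 array gave 0 to 509, and the 509 came without Dnmt3b-KO replicate 3. Over 5 arrays the filter on genes above the median gene gave 996 in place of 509, and the count was 1148 at a threshold of 0.1, 96 with the replicate block and 0 without empirical Bayes. Leaving out 1 more array gave 13 to 262, and where it was Dnmt3b-KO replicate 1 or 2 the knockout array left is taken to have the spread of the controls. Counted with Stag3, the cohesin members past the threshold numbered 0 or 1 under every setting run, and the 1 was always Stag3; the family was chosen by its difference, so this count is no test and nothing is read from it. The cause of these changes was not tested, except that the filter tests fewer genes.

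The difference of Stag3 minus that of Stag1 stayed between 1.11 and 1.29 over 6 arrays and between 1.19 and 1.37 over 5 with an array left out, and minus that of Stag2 between 0.90 and 1.24 and between 1.17 and 1.35. With the replicate block the 5-array values were 1.37 and 1.35. Control replicate 3 is then alone in its block, so these are the same values as with that array left out. Same-numbered arrays had correlated deviations of 0.13, 0.03 and 0.11, which do not pair the samples. The 9 members other than Stag3 gave no call with or without the block, and nothing is read from this.

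No member other than Stag3 was called under any alternative run. Over 6 arrays, only array weights and leaving out Dnmt3b-KO replicate 3 called any gene. Over 5 arrays 1.69% of all genes were called in the main fit. Nothing is therefore read from the lack of calls among the 9 members. Differences that changed sign were all small. Over 6 arrays, array weights gave 0.0555 for Stag1, 0.0933 for Stag2, 0.0505 for Smc1a, 0.0866 for Smc3 and -0.0054 for Rec8, and repeated quantile normalization gave 0.15 for Stag2 and 0.0627 for Rad21. Leaving out 1 array gave -0.31 to 0.084 for Stag1, -0.0785 to 0.11 for Stag2, -0.37 to 0.0679 for Smc1a, -0.31 to 0.10 for Smc3, -0.23 to 0.0168 for Rad21 and -0.0088 to 0.055 for Rec8. Over 5 arrays, the replicate block gave -0.0194 for Smc1b, -0.0673 for Rad21 and -0.0129 for Wapl, the same values as leaving out control replicate 3. For Rec8, centring gave 0.0039 and quantile normalization 0.0012. Leaving out 1 more array gave -0.021 to 0.0081 for Rec8, -0.0194 to 0.0394 for Smc1b, -0.0673 to 0.0732 for Rad21 and -0.0129 to 0.11 for Wapl. For the 9 members other than Stag3, the remaining 146 values without an array left out, and 86 with one, kept their direction. None of these passed the threshold, and the 29 values of Stag3 all stayed above 0. Settings that change only the variance estimate or the genes tested cannot change a difference. Nor can averaging rows, since each member had 1, or the replicate block over 6 arrays. Many of these directions were therefore fixed in advance, and nothing is read from their count. Genes below the median gene, Smc1b and Rec8, have no value under the filter. The level near background limits Stag3, Smc1b and Rec8.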

Other observations

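Within the other ring complexes, condensin and SMC5/6 genes went different ways on Dnmt3b-KO replicate 3. Smc2, a core subunit of condensin, measured 12.40 to 12.68 on the other 5 arrays and 11.29 there, and Ncapd2, a regulatory subunit of condensin, 12.88 to 13.11 and 11.68. Smc5, a core subunit of the SMC5/6 repair complex, measured 10.62 to 11.003 on the other 5 arrays and 11.71 there, while its partner Smc6 measured 12.56 to 12.60 and 12.45. These genes were chosen after their values were seen, and on 1 array the differences were not tested.

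The 8 letters TTCCCGCG, an extension of the E2F motif noticed on reading the printed promoters, were in 4 of the 7 cohesin windows on either strand, those of Stag3, Smc1b, Stag1 and Smc1a, and in 1.01% of all windows. In the Stag3 window they begin at position 248 of 300. The 8 letters contain CpG, and the cohesin windows hold more CpG than the median window, so 1.01% is not a like background. The motif was chosen after the sequences were seen, and its part in the Stag3 difference was not tested.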
